A study of Mus musculus with 4 samples.

Results

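The heat shock proteins and co-chaperones examined here are 40 named mouse genes of the HSP70, HSP90, small heat shock, DNAJ and BAG families, with the heat shock factors and several partners of the chaperone complex of chaperone-mediated autophagy. Members are a list of gene symbols drawn up with earlier results of these data known, and a probe was assigned to a member through its transcript accession. Of the 40 genes, 38 had a probe, 37 were well above background on all 4 arrays, and together they carried 56 of the 55378 probes compared. No probe was matched to Hspa1b or Dnajb5, and Hspb1, a small heat shock protein, stayed near background on all arrays, with log2 levels of 5.43, 6.20, 5.85 and 5.15. The working name of cytosolic chaperones does not hold for every member, because Hspa9, Hspd1, Hspe1, Trap1 and Dnaja3 encode proteins of mitochondria and Hspa13 encodes a microsomal HSP70.

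RNA came from confluent NIH-3T3 cells, an established mouse embryonic fibroblast line labelled wild type, grown in medium with 10% serum. One culture was untreated, and 3 further cultures each received 1 small molecule (AR7, CA39 or CA77) at 20 µM for 24 h. These compounds were made to activate chaperone-mediated autophagy. Each group has 1 one-colour Agilent array, although the title of the series speaks of sequencing. The compounds were dissolved in DMSO and the control label gives no treatment, so vehicle and compound cannot be told apart.

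Heat shock proteins bind unfolded polypeptides and use cycles of ATP hydrolysis, steered by co-chaperones, to hold, refold or hand them on. DNAJ proteins bring substrates to HSP70 and start its ATP hydrolysis, BAG proteins and HSP110 release the nucleotide, and small heat shock proteins hold substrates without ATP. Many of these genes are transcribed by heat shock factor 1, which binds inverted repeats of a short unit (the heat shock element) in their promoters. In chaperone-mediated autophagy, a cytosolic HSC70 complex that includes several of these co-chaperones carries single proteins to the lysosome.

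The heat shock element of those members that carry it is shown first. RefSeq start-site windows (GRCm38.p6) of 300 bases, with 250 upstream, were found for 33 of the 40 members, and not for Cryab, Hspa13, Hspa9, St13, Hsp90aa1, Hsp90ab1 and Hsf1. The 3-unit element, GAANNTTCNNGAA or TTCNNGAANNTTC, was searched on both strands, with overlapping matches allowed. It was present in 5 of these 33 members (15.2%) and in 179 of all 27025 genes with a window (0.662%). The stretches with the element are printed in coding direction, with every base covered by a match in capitals and positions counted from 1 at the first transcribed base.
Hspd1: gggccTTCCGGAAGGTTCTAGAAcggac
Hspe1: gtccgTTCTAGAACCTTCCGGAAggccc
Dnajb6: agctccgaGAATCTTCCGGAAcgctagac
Hsph1: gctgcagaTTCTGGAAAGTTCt
Chordc1: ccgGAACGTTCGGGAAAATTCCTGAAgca
The Hspd1 and Hspe1 stretches are the same 28 bases, chr1:55088054-55088081, read on the minus and the plus strand, since these genes of the mitochondrial chaperonin and its lid lie head to head. The element spans -144 to -127 of Hspd1 and -89 to -72 of Hspe1. The Dnajb6 stretch is chr5:29735844-29735872 on the plus strand, with the element at -46 to -34. That of Hsph1 is chr5:149636287-149636308 on the minus strand, with the element at 37 to 49, just after the start. That of Chordc1 is chr9:18292260-18292288 on the plus strand and spans the start, from -4 to 19.

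The shorter 2-unit form, GAANNTTC or TTCNNGAA, which is contained in the longer one, was in the windows of 16 of the 33 members (48.5%) and of 17% of all genes. Hspa1a and Hspa1b, which encode the stress-inducible HSP70, are printed because they are near-identical neighbours and a probe was matched to Hspa1a alone.
Hspa1a: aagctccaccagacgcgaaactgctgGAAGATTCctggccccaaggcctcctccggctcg
Hspa1b: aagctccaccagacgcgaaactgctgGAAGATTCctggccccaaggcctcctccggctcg
These stretches, chr17:34972227-34972286 and chr17:34959309-34959368 on the minus strand, were identical over all 60 bases, with the element (capitals) at -104 to -97 in both. Over the whole windows 296 of 300 bases (98.7%) were the same, and 12618 bases lie between the windows. Transcript and probe sequences were not compared here, and since the genes are known as near-identical copies, the Hspa1a values are uncertain as to the gene.

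The arrays were checked before the members were compared. No group has a replicate, so no test was run, and a difference is the log2 level of 1 array minus that of another. The comparisons with untreated share the untreated array and are not independent of each other. Of 399 probes with repeat spots, the 265 to 302 detected per array gave an SD of 0.16 for the difference between 2 arrays (spot SD below), which covers error within an array and not between cultures. Of 10 fibroblast markers, 9 were well above background on every array, with a summed level of 19.67 to 20.32. The epithelial list had 3 of 5 genes above background on every array, with a summed level of 9.10 to 10.87, highest with CA39, and Cdh1 was above background on no array. Endothelial markers summed to 11.92 to 12.11 (3 of 4 genes on every array) and leukocyte markers to 12.53 to 12.90 (2 of 4 measured). Between 52.2% and 69.7% of probes were well above background, most on the untreated array. All arrays came from 1 slide, on which the untreated array lay in another row than the treated ones, so treatment and row on the slide cannot be told apart.

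At its brightest probe, no member reached a 1.5-fold difference from untreated with any compound. With CA39 this depended on probe and processing. Dimmer probes of Hsph1 (-0.72), Hspa4 (-0.60 and -1.02) and Dnajb2 (1.80) lay past 1.5-fold. Other signals, scalings or probe means gave 1 to 3 members past it, and shares of all genes under those settings are not given here. In the reported processing the count of 0 of 37 stood beside 4.71% (AR7), 10.9% (CA39) and 6.47% (CA77) of all genes past 1.5-fold in either direction. At 2-fold the count was likewise 0 for each compound, beside 2.19%, 4.85% and 2.47% of all genes. The members' differences from untreated had an SD of 0.11 (AR7), 0.22 (CA39) and 0.18 (CA77), against 0.29, 0.45 and 0.29 over the 20594 genes above background on every array. Members are bright, which bears on this spread. A mean log2 level of 12 or more was reached by 34 of the 37 members and by 38.3% of those genes. Among the 7882 genes at that level the SD was 0.19, 0.36 and 0.20 in the same order, beside 0.09, 0.21 and 0.17 for the 34 members. Past 1.5-fold in either direction were 1.15%, 5.42% and 1.29% of these bright genes, beside 0 of the 34 members with each compound.

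At a smaller size, past 1.2-fold (0.263 on the log2 scale), CA39 had the most members. With CA39, 9 of 37 members lay lower (Hsph1, Hspa4l, Stip1, Fkbp4, Bag2, Ahsa1, Hsf1, Hspa1a and Dnajb6), where 18.1% of all genes did, and 3 lay higher (Dnajb4, Cryab and Hspa9), where 15% did. These are 24.3% and 8.11% of members, beside 22.3% and 15.8% of genes above background on every array. In either direction the members' share was 32.4% and that of all genes 33.1%, so the number of members past this size was at the background. Among genes with a level of 12 or more, 8 of 34 members (23.5%) and 13.8% of genes lay lower, and 2 members (5.88%) and 13.1% of genes lay higher. With AR7 only Dnajb4 lay past 1.2-fold, on the higher side (background 8.45% higher and 9.07% lower). Among the bright genes 0 of 34 members lay past this size with AR7, beside 4.21% of genes higher and 4.63% lower. With CA77, 5 members lay higher (Dnajb4, Hspa1a, Hspb8, Cdc37 and Dnajb6), where 11.4% of all genes did, and Hspb6 lay lower, where 14.6% did. In either direction 1 member (2.70%) lay past this size with AR7 and 6 (16.2%) with CA77, beside 17.5% and 26% of all genes. Among the bright genes 3 members (8.82%) and 5.49% of genes lay higher with CA77, and 1 member (2.94%) and 5.96% of genes lay lower.

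Several of these calls lie close to the threshold and were lost under at least 1 other processing. With CA39 these were Hspa9 (down to 0.08), Cryab (0.25), Hspa1a (-0.21), Hsf1 (-0.21) and Dnajb6 (-0.08), and with CA77 Cdc37 (0.24) and Dnajb6 (0.24). Other processing also gave larger differences with CA39, to -0.57 for Hspa1a, -0.34 for Hsf1 and -0.34 for Dnajb6, but not for Hspa9 and Cryab.

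**Figure D1:**
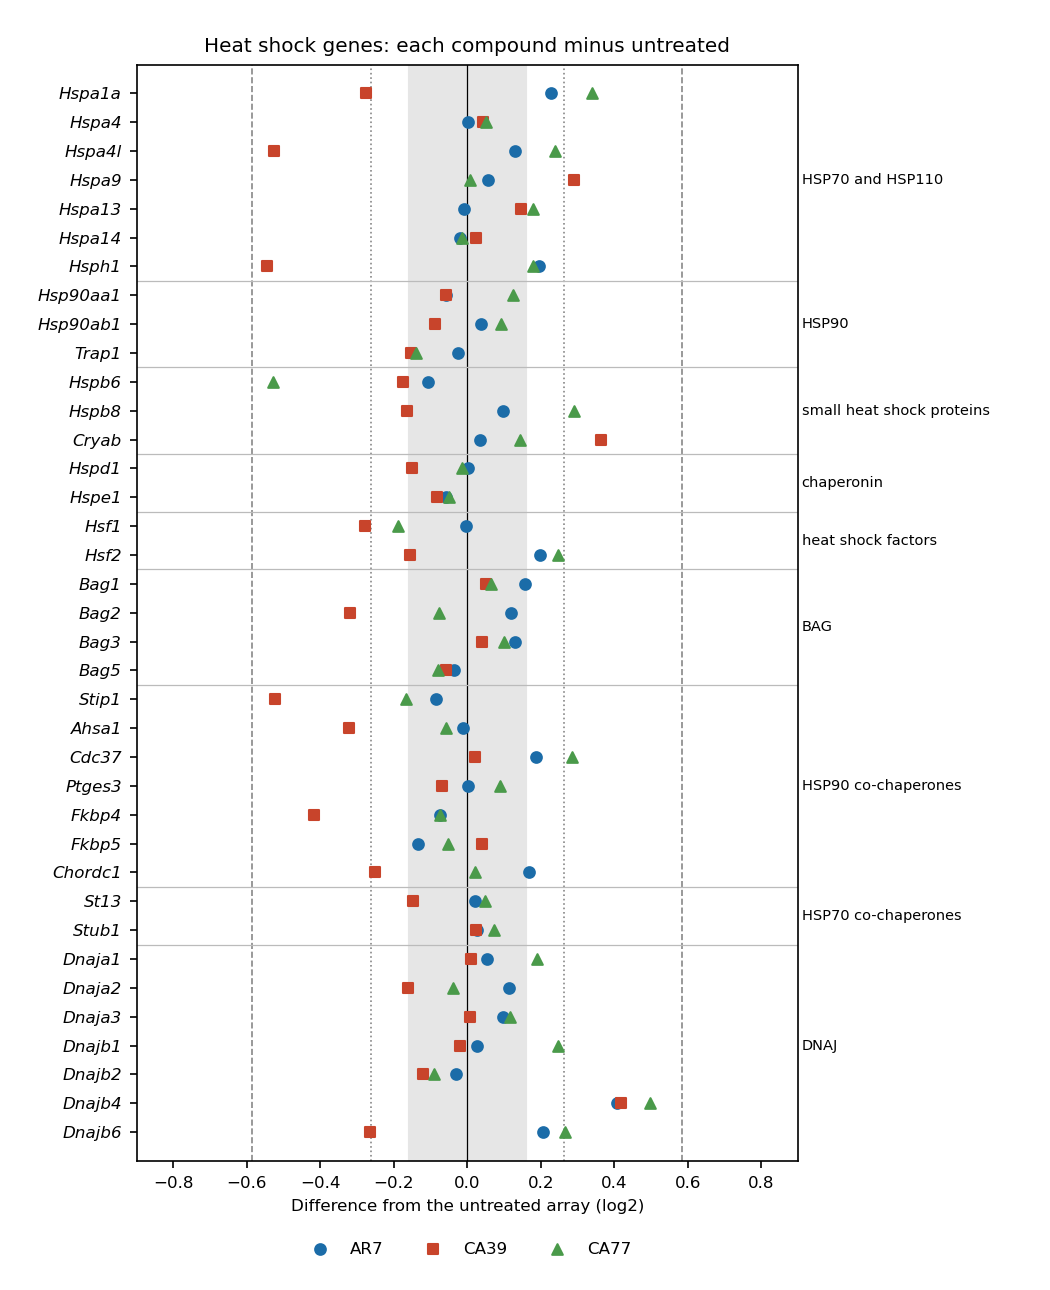
Difference of each compound's array from the untreated array (log2, horizontal axis) for the 37 members above background on every array, 1 point per compound, ordered by family. The grey band is the spot SD of 0.16, dotted lines mark 1.2-fold and dashed lines 1.5-fold, which no point crosses.

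The median difference of the members from untreated was 0.03 (AR7), -0.09 (CA39) and 0.07 (CA77). Other processing gave -0.03 to 0.04, so the AR7 sign is not settled, -0.21 to -0.08 and 0.04 to 0.09. Over all genes above background on every array these medians were -0.01, -0.04 and -0.02. The 12 members in grid rows 1 to 160 had medians of -0.005 (AR7), -0.10 (CA39) and -0.0045 (CA77). Members in later rows had 0.03, -0.08 and 0.09, and the part of position was not tested. With AR7, 24 members lay above 0 and 13 below, with CA39 13 above and 24 below, and with CA77 23 above and 14 below. The share of members above 0 was thus 64.9%, 35.1% and 62.2%, beside 46.2%, 44.2% and 45.1% of genes above background on every array. Most of these differences were small. They fell within the spot SD for 30 members with AR7 (81.1%, against 63.1% of all genes), for 21 with CA39 (56.8% against 42.9%) and for 23 with CA77 (62.2% against 56.1%). Among genes with a level of 12 or more these shares were 88.2% of members against 75.8% of genes with AR7, 58.8% against 53.8% with CA39, and 67.6% against 70.4% with CA77, where the order turned. CA39 was the lowest of the 4 arrays in 21 of 37 members (56.8%, against 37.8% of all genes), and CA77 the highest in 17 (45.9% against 20.9%).

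**Figure D2:**
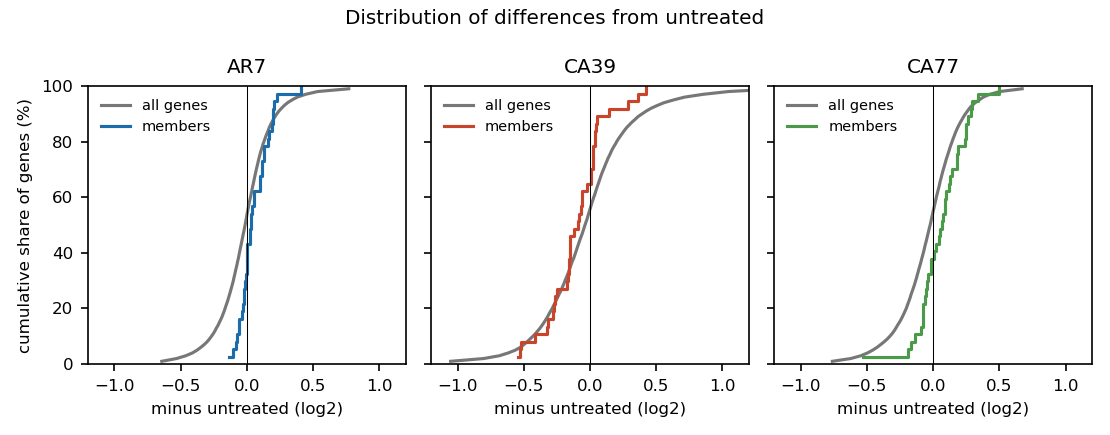
Cumulative share (%, vertical axis) of genes by difference from untreated (log2, horizontal axis) for each compound, with the 37 members as coloured steps and the genes above background on every array in grey. The member steps are steeper than the grey curves, and with CA39 they end at 0.42 while the grey curve goes on.

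Within the HSP70 and HSP110 family the lower values with CA39 were, at the brightest probes, those of Hsph1 and Hspa4l, nucleotide exchange factors of the HSP110 type, and of Hspa1a. Hsph1, which encodes HSP110, had log2 levels of 15.02 on untreated, then 15.21 (AR7), 14.47 (CA39) and 15.20 (CA77). The CA39 array lay below the other 3, at 0.685 times the untreated level (-0.55), while AR7 (0.19) and CA77 (0.18) lay slightly above untreated. A separate Hsph1 probe of the same transcript had 14.07, 14.22, 13.35 and 14.23, again lowest with CA39 (-0.72). The spots around the first probe differed from untreated by a median of -0.16 with CA39.

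Hspa4l, another member of the HSP110 type, had a similar order of arrays. Its levels were 13.90 on untreated, then 14.03 (AR7), 13.38 (CA39) and 14.14 (CA77). The CA39 array was again the lowest (0.695 times untreated, -0.53), and its 8 neighbouring spots had a median of -0.28. Hspa1a was dim, at 7.60, 7.83, 7.32 and 7.94 on the same arrays. It was lowest with CA39 (-0.27) and highest with CA77 (0.34), and its neighbouring spots were also lower with CA39, by the same median of -0.27. The part of the neighbouring spots in these values was not tested.

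Probes of Hspa4, the third HSP110-type gene, did not give 1 answer. The brightest probe stood at 16.28, 16.28, 16.32 and 16.33 on untreated, AR7, CA39 and CA77, all within 0.05. A dimmer probe of the same transcript had 13.42, 13.34, 12.82 and 13.31. The dimmest had 11.72 on untreated, 11.38 with AR7 and 11.50 with CA77. Both dimmer probes were lowest with CA39, at -0.60 and -1.02 from untreated, so the direction for Hspa4 depends on the probe. Their neighbouring spots had CA39 medians of -0.04 and -0.44, and those of the brightest probe -0.19. The part of the neighbouring spots was not tested. With AR7 the dimmest probe differed by -0.34.

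The remaining HSP70 genes were close to untreated or slightly above it. Hspa9, the mitochondrial HSP70, had 15.71, 15.77, 16.00 and 15.72 and was highest with CA39 (0.29, but 0.08 with 75th percentile scaling of the processed signal). Hspa13 and Hspa14, which encodes an HSP70 bound to ribosomes, lay between -0.02 and 0.18 with all compounds at their brightest probes. The median of the 7 measured HSP70 and HSP110 genes was 0.06 (AR7), 0.02 (CA39) and 0.18 (CA77), so at the brightest probes the low CA39 values are those of 3 genes. With the mean over the probes of each gene the CA39 median was -0.27. The sign of this CA39 median was kept in 6 of 10 alternatives, so it is not settled.

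HSP90 genes differed little. Trap1, the mitochondrial HSP90, was the member with the largest difference among them, with 13.76 on untreated, then 13.74 (AR7), 13.61 (CA39) and 13.62 (CA77), all within the spot SD of untreated. Hsp90aa1, the inducible cytosolic form, had 16.72, 16.67, 16.67 and 16.85. Hsp90ab1, the constitutive form, had 18.22, 18.25, 18.13 and 18.31. For both cytosolic forms CA77 was the highest array, at 0.13 and 0.09 above untreated, which is less than the spot SD. The difference of CA39 from CA77 was -0.18 for both, slightly more than the spot SD.

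At the brightest probes, the HSP90 co-chaperones held the lowest family median with CA39 against untreated, at -0.25 for 7 genes. With AR7 this median was -0.01 and with CA77 -0.05. Other processing gave -0.32 to -0.24 with CA39, while the HSP70 and HSP110 median was -0.27 with the mean over probes. Stip1, Ahsa1, Chordc1, Cdc37 and Fkbp5 lay in grid rows 1 to 160, and the part of position was not tested. HSP90 co-chaperones outside the 40 members (9 genes) had a CA39 median of -0.10. Stip1 encodes HOP, the adaptor that joins HSP70 to HSP90 and that also takes part in the chaperone complex of chaperone-mediated autophagy. It had 14.12 on untreated, then 14.04 (AR7), 13.60 (CA39) and 13.96 (CA77). CA39 was lowest, at 0.696 times untreated (-0.52), with a median of -0.07 over its neighbouring spots. Fkbp4, an immunophilin of steroid receptor complexes, had 13.47, 13.40, 13.06 and 13.40 (-0.42 with CA39, neighbouring spots -0.29).

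Ahsa1, the activator of the HSP90 ATPase, had 16.07, 16.06, 15.75 and 16.01, again lowest with CA39 (-0.32, neighbouring spots -0.22). Chordc1, an HSP90-binding protein whose start carries the element above, had 13.06, 13.23, 12.81 and 13.08 (-0.25 with CA39). Cdc37, which brings protein kinases to HSP90, did not follow them: it had 16.84, 17.03, 16.86 and 17.12, highest with CA77 (0.28) and at the untreated level with CA39. Ptges3 (p23) differed by -0.07 with CA39 at its brightest probe and by -0.29, -0.30 and -0.21 at its other probes. Fkbp5, another immunophilin and a target of the glucocorticoid receptor, lay between -0.13 and 0.04.

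**Figure D3:**
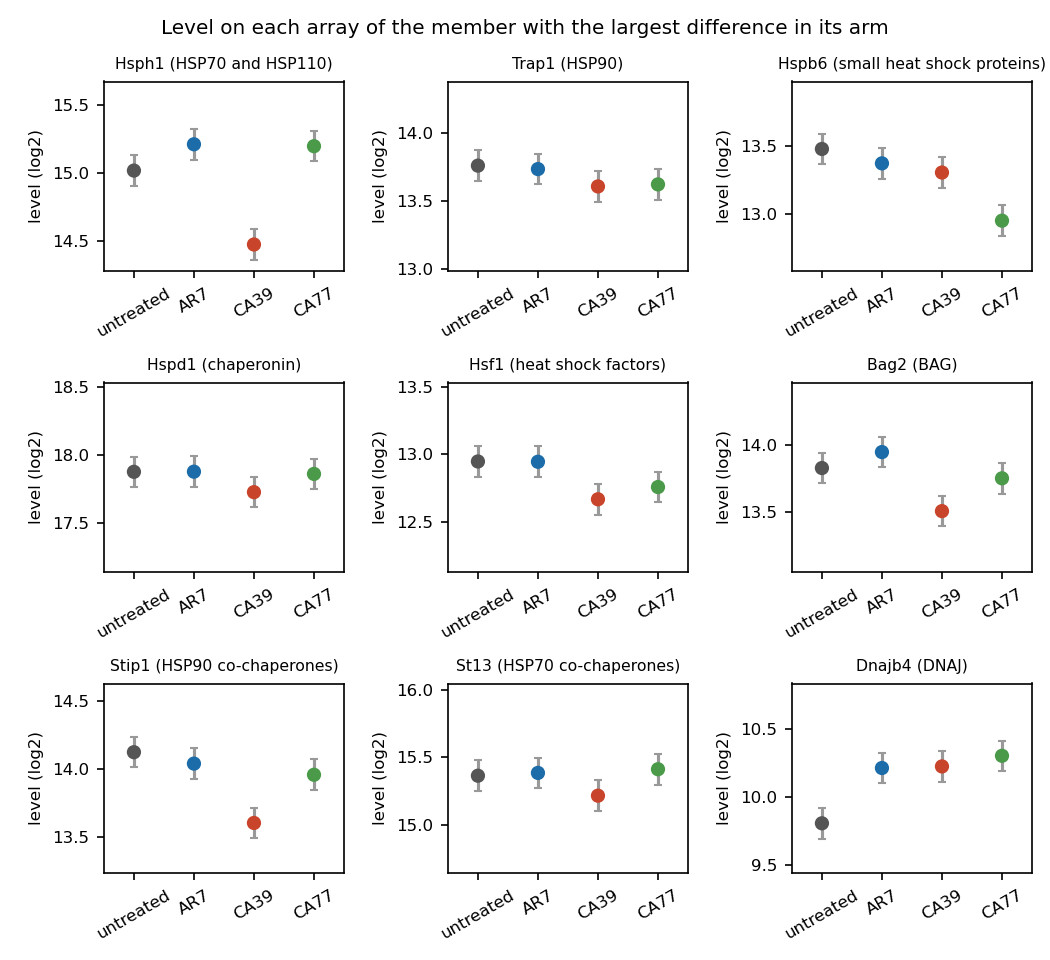
Level (log2, vertical axis) on each of the 4 arrays for the member with the largest difference from untreated in each family, 1 point per array, each panel spanning the same number of log2 units. Bars are the spot SD of 1 array, not a replicate error, and since members were chosen by the size of their difference, the panels are not a sample of the members. CA39 is the lowest array in all panels but Hspb6 and Dnajb4, and in 21 of all 37 members (56.8%, against 37.8% of all genes).

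Among the DNAJ genes, Dnajb4 was the only member on the same side past 1.2-fold with every compound. It had 9.81 on untreated, then 10.21 (AR7), 10.23 (CA39) and 10.30 (CA77). All treated arrays lay above untreated, by 0.41, 0.42 and 0.50, and they lay within the spot SD of each other. Since all are set against the same untreated array, they are not separate observations, and neighbouring spots had medians of 0.19, 0.25 and -0.23. Dnajb4 encodes a type II J-domain protein close to Dnajb1, the main HSP40 of the heat response.

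Dnajb6, a J-domain protein that blocks aggregation of polyglutamine proteins, had 4 probes. The brightest had 13.99 on untreated, then 14.20 (AR7), 13.73 (CA39) and 14.26 (CA77), which is higher with AR7 (0.21) and CA77 (0.27) and lower with CA39 (-0.26). The other probes lay between 0.24 and 0.32 with AR7 and between 0.31 and 0.54 with CA77. With CA39 they differed by -0.12, -0.06 and 0.10. The higher values with AR7 and CA77 were thus shared by all 4 probes, and the lower value with CA39 was not. The spots around these other probes had CA39 medians of 0.91, -0.08 and -0.15 in the same order, and those around the brightest probe 0.17. The part of the neighbouring spots in the probe differences was not tested.

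Dnajb2 had the widest gap between probes. Its brightest probe had 12.58, 12.55, 12.46 and 12.49, all within the spot SD of untreated. A probe for another transcript accession had 8.79, 8.69, 10.59 and 8.61, which is 1.80 higher with CA39 alone. That spot lay in grid row 43, and the 8 spots around it had a median difference of 0.56 with CA39, against -0.06 with AR7 and -0.13 with CA77. Whether the region or the transcript gave this value was not tested. Dnajb1 had 15.59, 15.62, 15.57 and 15.84, highest with CA77 (0.25), and Dnaja1, Dnaja2 and Dnaja3 lay between -0.16 and 0.19 at their brightest probes. The median of the 7 measured DNAJ genes was 0.10 (AR7), -0.02 (CA39) and 0.19 (CA77).

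**Figure D4:**
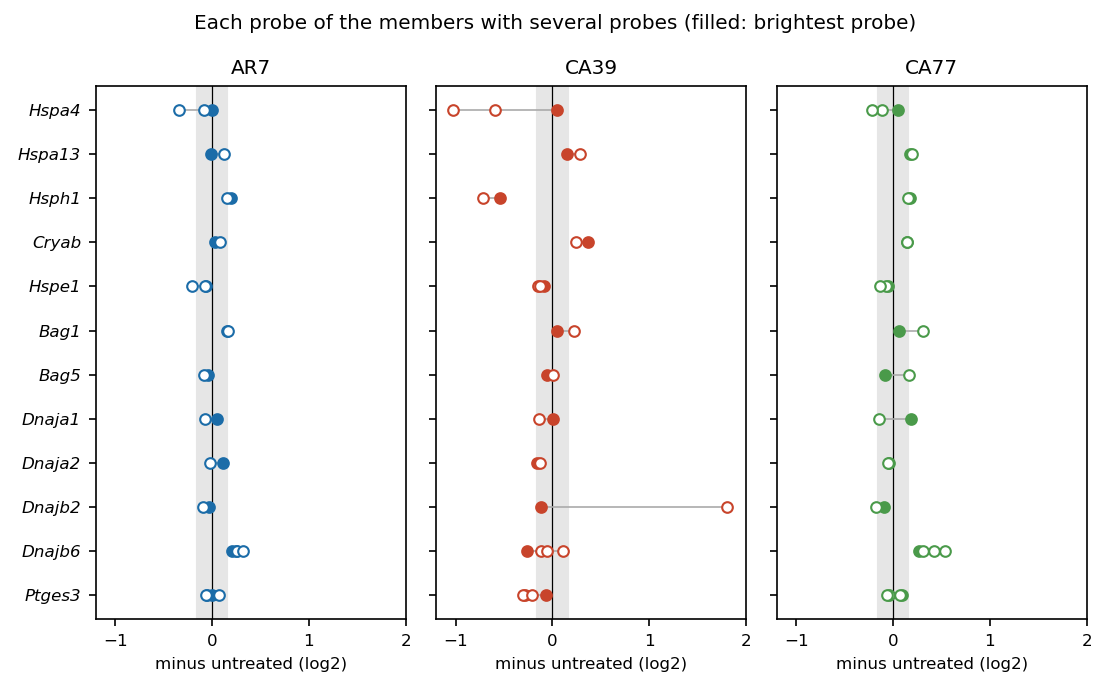
Difference from untreated (log2, horizontal axis) of each probe of the 12 members with several probes, 1 panel per compound, filled points for the brightest probe and open points for the others. With CA39 the probes of Hspa4 and Dnajb2 lie far apart, while the Hsph1 probes lie together at -0.55 and -0.72.

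Over the 12 members with several probes (30 probes in all), all probes of a gene had the same sign in 7 (AR7), 7 (CA39) and 8 (CA77) members. The median range between the probes of a gene was 0.12, 0.16 and 0.12. A range over 2 spot SDs was found in 1, 3 and 1 members.

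The small heat shock proteins differed from untreated in different directions. Hspb6, which is abundant in muscle, was the member farthest below untreated with CA77. It had 13.48 on untreated, then 13.37 (AR7), 13.30 (CA39) and 12.95 (CA77) (-0.53, or 0.693 times untreated), and its neighbouring spots had a median of 0.07 with CA77. Hspb8, which works with Bag3 in selective autophagy, had 13.84, 13.94, 13.68 and 14.14, highest with CA77 (0.29). Cryab, the alpha-B crystallin, had 14.50, 14.54, 14.87 and 14.65, highest with CA39 (0.36), where its other probe differed by 0.24.

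The chaperonin genes were near untreated. Hspd1 had 17.87 on untreated, then 17.88 (AR7), 17.72 (CA39) and 17.86 (CA77), and Hspe1 had 17.03, 16.97, 16.95 and 16.98. The widest difference at their brightest probes was -0.15, for Hspd1 with CA39. Both carry the long element in the promoter they share. With CA39 the 5 members with that element all lay below untreated at their brightest probes, from -0.55 (Hsph1) to -0.08 (Hspe1). Of all 37 members 64.9% lay below 0, as did 55.6% of genes above background on every array. The part of the element in these values was not tested.

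Of the heat shock factors, Hsf1, the main regulator of the heat response, had 12.95, 12.95, 12.67 and 12.76, lowest with CA39 (-0.28) and then CA77 (-0.19). Hsf2, which can pair with it, had 11.31, 11.51, 11.16 and 11.56, lowest with CA39 (-0.16) and highest with CA77 (0.25). RNA levels of these factors do not measure their activity.

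At their brightest probes, the partners of HSP70 lay close to untreated with 1 exception. Bag2, an inhibitor of the ubiquitin ligase CHIP, had 13.83 on untreated, then 13.95 (AR7), 13.51 (CA39) and 13.75 (CA77), lowest with CA39 (-0.32). Bag1 had 15.79, 15.94, 15.84 and 15.85, and a dimmer probe lay 0.17, 0.22 and 0.31 above untreated. Bag3, the inducible BAG protein of selective autophagy, had 13.67, 13.80, 13.71 and 13.77, all within the spot SD of untreated. Bag5 lay between -0.08 and -0.04 at its brightest probe.

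St13 (HIP) and Stub1 (CHIP) are HSP70 co-chaperones, and St13 belongs to the chaperone complex of chaperone-mediated autophagy. St13 had 15.36, 15.39, 15.22 and 15.41, with CA39 lowest by 0.15 below untreated. Stub1 had 14.93 on untreated and 14.95 with AR7 and CA39, and CA77 lay 0.07 above untreated. Both lay within the spot SD of untreated on every treated array.

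The compounds were also compared with each other at the same dose and time, in 3 pairs. CA39 minus AR7 gave 2 members past 1.5-fold lower (Hsph1 at -0.74 and Hspa4l at -0.66), beside 6.21% of all genes and 3.44% of those with a level of 12 or more. CA39 minus CA77 gave 3 past 1.5-fold lower, beside 5.19% of all genes: Hspa4l at -0.77, Hsph1 at -0.73 and Hspa1a at -0.61. Hspa1a, the dim one, was at -0.49 with a background offset of 50, short of 1.5-fold. Of genes with a level of 12 or more, 2.64% lay past 1.5-fold lower in this pair, beside 2 of the 34 members. CA77 minus AR7 gave 0, beside 4.73% of all genes in either direction, and its extremes were Hspb6 at -0.42 and Dnajb1 at 0.22. Of genes with a level of 12 or more, 0.19% lay past 1.5-fold in either direction for CA77 minus AR7, beside 0 of the 34 members.

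At 1.2-fold, 12 of 37 members (32.4%) were lower with CA39 than with AR7, where 21% of all genes were, and 1 was higher (Cryab, 0.33), where 18.7% were. Against CA77 the counts with CA39 were 12 lower, where 17.4% of all genes were, and 2 higher, where 17.8% were. Among genes with a level of 12 or more, 10 of 34 members (29.4%) were lower in each pair, and 14.5% and 14.8% of genes were. On the higher side there were 1 (2.94%, beside 14.3% of genes) against AR7 and 2 (5.88%, beside 14.4%) against CA77. Between CA77 and AR7 only Hspb6 lay past 1.2-fold (background 10.5% lower). Among genes with a level of 12 or more, 2.94% of members and 6.5% of genes lay past it for CA77 and AR7, counting both directions. In either direction 35.1% of members and 39.7% of all genes lay past 1.2-fold for CA39 and AR7, 37.8% and 35.2% for CA39 and CA77, and 2.70% and 17.8% for CA77 and AR7, so the number of members in the CA39 pairs was at the background. Both pairs with CA39 share its array, so they are not independent.

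The member medians were -0.11 for CA39 minus AR7, -0.13 for CA39 minus CA77 and 0.02 for CA77 minus AR7, against -0.03, -0.01 and -0.01 for the genes above background on every array. Of 37 members, 29 lay below 0 and 7 above in the first pair and 31 below and 6 above in the second. These are 78.4% and 83.8% of members below 0, beside 54.7% and 51.6% of genes above background on every array. Among the HSP90 co-chaperones, 4 of 7 lay past 1.2-fold lower against AR7 (median -0.31), beside 21% of all genes, and 5 of 7 against CA77 (median -0.27), beside 17.4%. HSP90 co-chaperones outside the members did not share this, with 1 of 8 lower against AR7 (median -0.14) and 1 of 9 against CA77 (median 0). No interval can be given for these differences, since 1 array per compound gives no spread between cultures.

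**Figure D5:**
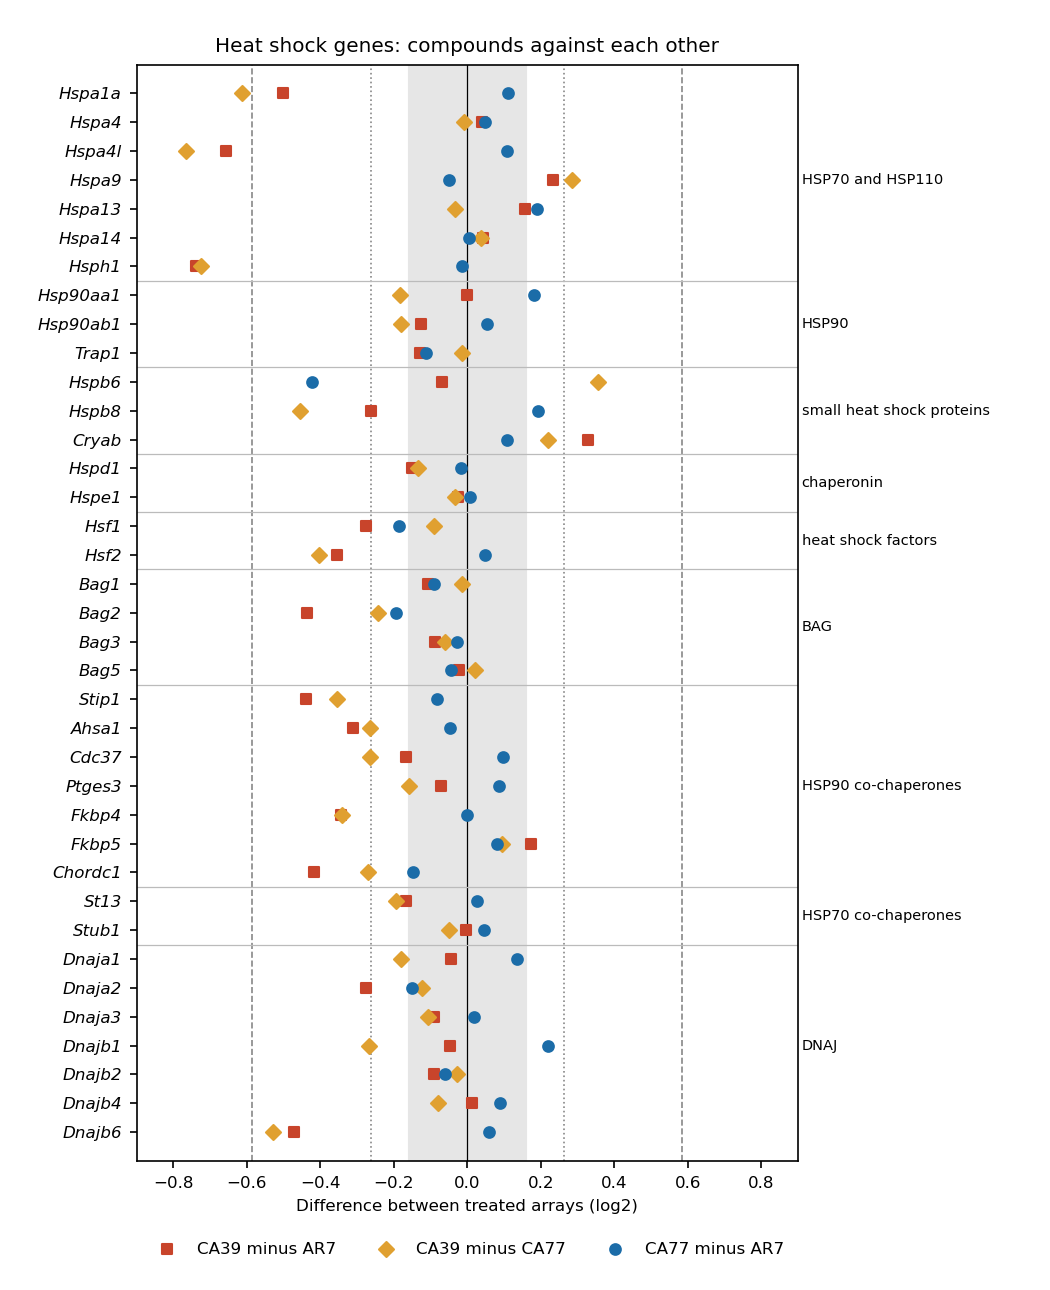
Difference between treated arrays (log2, horizontal axis) for the 37 members, 1 point per pair of compounds, ordered by family, with the grey band at the spot SD of 0.16 and dotted and dashed lines at 1.2-fold and 1.5-fold. Points for CA39 minus AR7 and CA39 minus CA77 lie mostly left of 0, and only Hsph1, Hspa4l and Hspa1a pass the dashed line.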

How the data were processed

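Total RNA of 4 cultures was labelled with Cy3, and the authors extracted spots with Feature Extraction 10.7.3.1. The deposited values are linear spot intensities, with local backgrounds and detection marks for 62976 spots per array, of which 59305 carry gene probes. The deposited series table equals the background-subtracted intensity at all 62976 spots, without log transformation. The submitters' processing notes name oligo and RMA, with versions not given in the sources used here.

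Median intensity and local background were corrected with the normal-exponential model (limma 3.58.1, R 4.3.3, no offset), and arrays were quantile normalized without control spots and put on the log2 scale. Outlier-marked spots were left out (142 to 328 per array) and spots of a probe averaged. The probe with the highest mean stands for a gene. A probe was above background when over 50% of its spots passed the scanner's own test. Values not above background were raised to the 1st percentile of detected signal of the array (log2 5.88 on untreated, 6.82 with AR7, 6.87 with CA39 and 6.26 with CA77). Accessions were matched to RefSeq of GRCm38.p6 (27512 probes, 20895 symbols, 36838 gene names with unmatched ones). The spot SD is the square root of 2 times the median SD over 10 repeat spots. Steps were tested on simulated data.

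Levels on all arrays are given for members past 1.5-fold from untreated and for the member with the largest difference of each family. Further members, the reading at 1.2-fold and the comparison with genes at a level of 12 or more were chosen after their values were seen. Members and lists were chosen with earlier results of these data known. Levels are not compared between genes. The number of arrays limits the precision. Alternatives were the offset, signal, scaling, floor, filter, outlier marks, probe choice, array region and threshold.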

Additional observations from a re-analysis of the deposited data

Results flagged for a closer look

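For 2 members, the difference from untreated lay past 1.2-fold in opposite directions with different compounds. The share of all genes that did so is not given here, so the count cannot be set against a background. Past 1.2-fold in either direction were 33.1% (CA39) and 26% (CA77) of all genes. Hspa1a differed by 0.34 with CA77 and by -0.27 with CA39 (log2), and Dnajb6 differed by 0.27 with CA77 and by -0.26 with CA39. With 1 array per compound the difference between compounds was not tested, and both values share the untreated array. With a background offset of 50 the CA39 values were -0.21 for Hspa1a and -0.26 for Dnajb6, both short of 1.2-fold, the second only just. Other processing took the CA39 value of Hspa1a as far as -0.57 and that of Dnajb6 as far as -0.34. With the processed signal quantile normalized Dnajb6 was at -0.23, and with the mean over its probes at -0.08. For Dnajb6 the lower value with CA39 was not shared by all of its probes.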

How the results depend on the processing

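No paired analysis was possible because each group has 1 array. Of the 37 members, 0 lay past 1.5-fold from untreated with CA39, where 10.9% of all genes did. This count was 2 with the processed signal scaled to its 75th percentile and 1 with that signal quantile normalized. It was 3 with the series table and 2 with the mean over probes. The shares of all genes under these alternatives are not given here. Without floor and filter Hspb1, above background on no array, entered as the only call for AR7 against untreated (1) and CA77 against AR7 (1, also 1 past 2-fold). At 1.2-fold the counts from untreated were 1 (AR7), 12 (CA39) and 6 (CA77), and between compounds 13 for CA39 and AR7, 1 for CA77 and AR7 and 14 for CA39 and CA77 (39.7%, 17.8% and 35.2% of all genes).

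Between compounds the count past 1.5-fold was 2 to 3 for CA39 and AR7 (2 reported) and 2 to 4 for CA39 and CA77 (3 reported). The offset of 50 took Hspa1a out of the latter, and the mean over probes added Dnajb2 to both (0.91 and 0.97). Here too, shares of all genes under the alternatives are not given.

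The member median ranged from -0.03 to 0.04 with AR7, from -0.21 to -0.08 with CA39 and from 0.04 to 0.09 with CA77. With 75th percentile scaling the median of all genes with CA39 was -0.12, against -0.04 in the reported processing. Of 2148 recomputed differences of the 37 members 2127 moved by less than the spot SD, and 0 of those past 1.2-fold changed sign. With the mean over probes, CA39 gave -0.53 for Hspa4 and 0.84 for Dnajb2, and Hsph1 and Hspa4l kept their direction throughout. Dim signal limits Hspb1 and Hspa1a most, and replicate cultures are absent.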

Other observations

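Chaperone genes outside the 40 members were described from 51 listed genes, of which 50 were compared. The TRiC chaperonin, which folds actin and tubulin, had 8 genes, and 0 lay past 1.2-fold with any compound, where 17.5%, 33.1% and 26% of all genes did (medians 0.04 with AR7, -0.04 with CA39 and 0.02 with CA77). Hspa8, the constitutive HSC70 that selects the substrates of chaperone-mediated autophagy, differed by 0.07, -0.04 and 0.01. Past 1.5-fold from untreated were 2 (AR7), 5 (CA39) and 0 (CA77) of these genes, and these counts of 50 stand beside 4.71%, 10.9% and 6.47% of all genes. Hmox1, the heme oxygenase of the oxidative stress response, differed by 0.97, 1.21 and 0.37 in the same order, and its other probe by 0.88, 1.17 and 0.26. Sqstm1, the autophagy receptor p62, differed by 0.71, 0.36 and 0.53.

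The other genes past 1.5-fold were so with CA39 only. They were Hspa12a (1.28), Hspb7 (0.87), Hspb11 (0.64), which despite its name encodes a protein of cilia, and Dnaja4 (-0.59). Dnaja4 also lay lower with AR7 (-0.52) and CA77 (-0.34). The spots of Hspa12a and Hspb7 lay in grid rows 45 and 20, within the upper rows of the array that hold the Dnajb2 probe with the high CA39 value, and the part of position in these values was not tested.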
